A study of Rattus norvegicus with 8 samples.

Results

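Expression of the genes for the insulin-like growth factors (IGFs), their receptors and their binding proteins was examined in osteoblast-like cells from rat calvaria after Er:YAG laser irradiation. The members were Igf1, Igf2, Igf1r, Igf2r and Igfbp2 to Igfbp7, and every non-control probe of the array whose gene name was exactly one of these was taken. This gave 10 genes and 18 probes, of 34912 gene names and 45598 rat probes on the array. The Er:YAG laser is an erbium laser whose light is strongly absorbed by water. Each of the 8 arrays held total RNA of 1 sample labeled with Cy3, 4 samples from non-irradiated cells and 4 from cells collected 6 h after irradiation for 60 s at 3.3 J/cm2. Both groups were primary cells from the calvariae of Wistar rats aged 3 to 5 days, released by serial enzymatic digestion and cultured in 35-mm dishes in medium with 10% serum, and no genetic change was described for either. In the study's methods, every irradiation was done without medium, and dishes for quantitative PCR were then refilled with osteoinduction medium. This was growth medium with ascorbic acid, β-glycerophosphate and dexamethasone. The medium of the array samples after irradiation is not stated separately. Samples were numbered 1 to 4 in each group. The names under which the arrays were deposited give both samples of a number the same rat number, but neither labels nor methods state the pairing. The labels do not say whether a number stands for a separate animal or culture, so the p-values below measure the spread between these samples only.

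IGF-I and IGF-II are small secreted proteins related to insulin that promote growth and survival of bone-forming cells, and bone matrix stores both. They signal through the type 1 IGF receptor, a tyrosine kinase, whereas the IGF-II receptor, which also carries mannose 6-phosphate-tagged enzymes, takes up IGF-II for degradation in lysosomes. Binding proteins hold the ligands in tissue and blood and either keep them from the receptor or deliver them to it, and proteases release the ligand by cutting the binding proteins.

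Each probe was a 60-base DNA oligonucleotide, and several members were read by more than 1 of them: Igf1 by 5 probes, Igf2 by 3, Igf1r and Igfbp5 by 2 each, and the other 6 genes by 1. Positions are those of the array design on the rat genome build rn4. Exons and untranslated regions were not looked up, because an annotation of that build was not used here. The probes that the results turn on are printed below 5′ to 3′ on the strand of the gene, whole where 60 bases are given and otherwise as the last 30 bases. Among genes with several probes, those of Igf1 differed most in how far they varied between replicate numbers. The capitals in 1 Igf1 probe mark CT repeated 9 times. Igfbp3 and Igfbp5 varied the most between replicate numbers, the probes of Igf1r placed replicate 4 at opposite ends, Igf2 had the brightest probe of the family, and the capitals in Igfbp7 mark the letters AATAAA, the usual signal for polyadenylation.
Igf1 A_64_P052740: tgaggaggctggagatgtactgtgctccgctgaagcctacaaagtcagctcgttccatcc
Igf1 A_44_P1164271: atagcagtttCTCTCTCTCTCTCTCTCTtt
Igf1 A_44_P1107298: aagtgttactaactgaatcattatcttaca
Igf2 A_44_P1037953: ttttaacctgttaacgcttgcaaacctaat
Igf1r A_44_P474037: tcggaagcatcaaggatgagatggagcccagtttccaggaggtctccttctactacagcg
Igf1r A_44_P1101096: ctagtagttaaagtaccacatgaattaagt
Igfbp3 A_64_P046754: tgcctgcctgtcagcttttctttatttttt
Igfbp5 A_64_P047478: gttgaacggacagagaagggaagaagagaa
Igfbp7 A_64_P048187: aaacaAATAAAattcttattacaacaggaa
Searched on the probe strand only, CT repeated at least 9 times occurred in 8 of the 45598 probes (0.0175%), 1 of them being that of Igf1. The letters AATAAA occurred in 4121 probes (9.04%), and among the 18 members only in that of Igfbp7.

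The 18 probes were spotted 42 times on each array. All 18 were well above background on all 8 arrays, none was saturated, and all passed the filter on dim probes. Values below are log2 signals, that is, spot brightness corrected for background by the scanner software, transformed to log2, quantile normalized between arrays and averaged over the spots of a probe. For a gene with several probes, the brightest one is given first. The median processed signal before normalization was 56.2 to 72.6 on the non-irradiated and 56.8 to 84.8 on the irradiated arrays, and 26543 to 30490 probes were well above background. All arrays lay on 1 slide and were read in 1 scan. Each number had its arrays side by side, the non-irradiated one in an odd column (1 or 3) and the irradiated one in an even column (2 or 4), so column and irradiation cannot be told apart, nor place on the slide and replicate number. The arrays of number 2 did not resemble each other. Across 26250 probes, deviations of irradiated replicate 2 from the group mean correlated with those of non-irradiated replicate 1 at 0.439. With those of its own number they correlated at 0.0542. Those of non-irradiated replicate 2 correlated highest with irradiated replicate 3, at 0.303. Within the other numbers the arrays correlated at 0.608, 0.571 and 0.749. These correlations are across probes, which are not independent replicates.

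All 10 osteoblast markers examined, Runx2, Sp7, Alpl, Col1a1, Col1a2, Bglap, Spp1, Ibsp, Dlx5 and Sparc, were well above background on all 8 arrays. Their summed log2 signal was 19.38 to 19.53 in non-irradiated and 19.07 to 19.50 in irradiated cells. Of the 7 macrophage markers, 4 were above background on all arrays and Cd163 on none, with a sum of 10.22 to 10.37 and of 9.98 to 10.50. Of the 6 endothelial markers, 4 were above background throughout and Tie1 and Emcn on no array. Of the 5 chondrocyte markers, 4 were above background on all 8 arrays, with a sum of 12.54 to 16.32 in non-irradiated and 12.63 to 16.37 in irradiated cells. Of the 6 skeletal muscle markers, 4 were above background on all 8 arrays. Of the 4 adipocyte markers, none was above background on all 8 arrays, and Plin1 and Lep were on no array. Of the markers that passed the filter on dim probes (10 osteoblast, 5 chondrocyte, 4 macrophage, 4 endothelial and 4 skeletal muscle genes, and no adipocyte gene), 0 had an unadjusted p below 0.05 for irradiation in limma at the brightest probe. The defining markers of the labeled cell type were thus present, and some markers of other cell types were detected with them.

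The comparison of irradiated with non-irradiated cells asked whether laser light altered expression of the IGF genes. The members did not separate the groups. In the limma fit with the replicate number as a block, 0 of the 18 probes passed both a fold change of 2 and an adjusted p of 0.1 (Benjamini-Hochberg), as did 0 of the 26399 probes tested (0%). At an unadjusted p below 0.05, 0 of the 18 member probes passed, beside 670 of all probes (2.54%). For each of the 18 probes the ranges of the groups overlapped, whereas 152 of 26250 probes (0.579%) had groups that did not overlap. Irradiated cells had the higher mean in 11 member probes (61.1%, beside 48.8% of all probes). The median log2 difference was 0.02 over the members and -0.0034 over all probes, and the member differences ran from -0.18 to 0.15. The adjusted p was 0.9999 for every member.

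**Figure D1:**
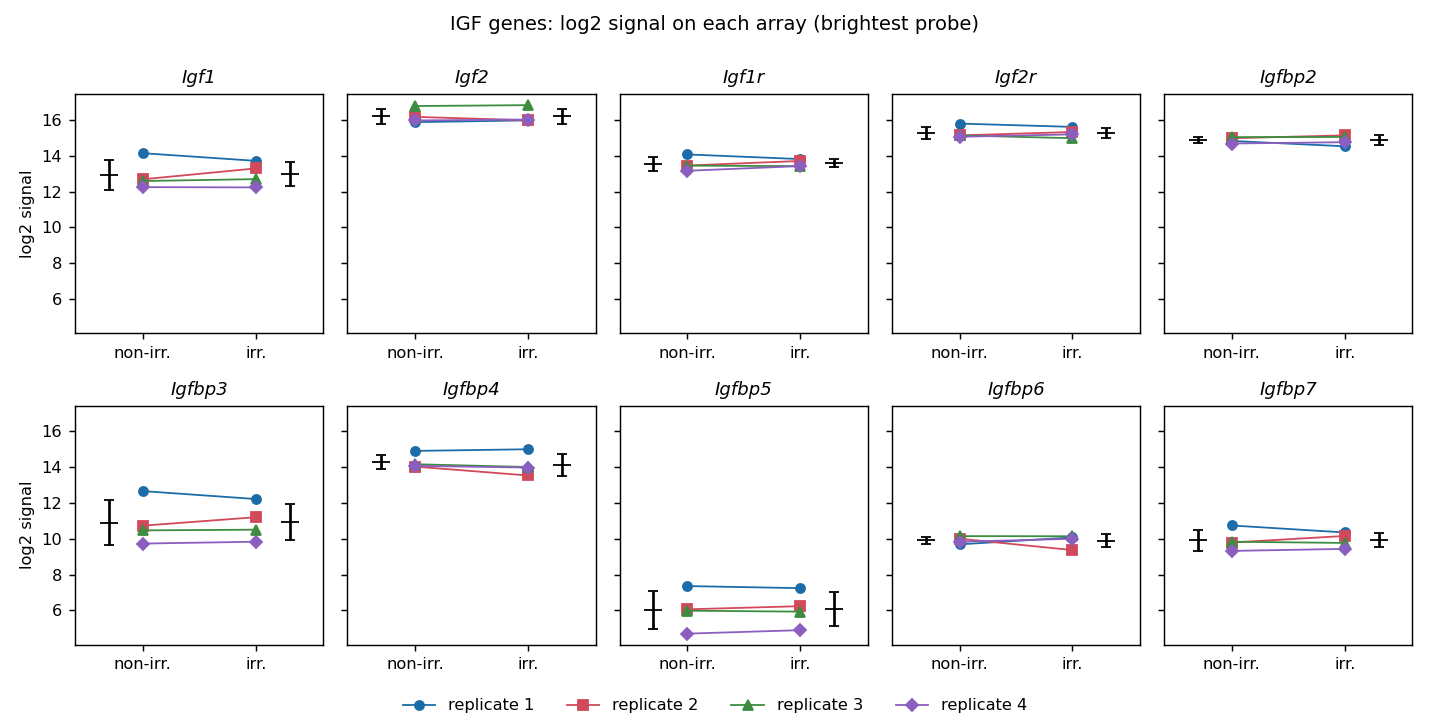
Log2 signal of the brightest probe of each of the 10 IGF genes on the 8 arrays, with non-irradiated (non-irr.) on the left and irradiated (irr.) on the right of each panel, lines joining arrays of 1 replicate number, and bars giving the group mean ± SD (n = 4). The groups overlap in every panel, and replicate 1 lies highest in both groups for Igf1, Igf1r, Igf2r, Igfbp3, Igfbp4, Igfbp5 and Igfbp7.

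Among the ligands, Igf1 encodes IGF-I, made locally by osteoblasts as well as by the liver. Its brightest probe (A_44_P1107298, chr7:24610779-24610838, plus strand) read 14.15, 12.69, 12.59 and 12.25 in non-irradiated replicates 1 to 4. In irradiated replicates 1 to 4 it read 13.72, 13.30, 12.70 and 12.24. Replicate 1 was highest and replicate 4 lowest in both groups, and the irradiated values lay within the non-irradiated range on all arrays but that of replicate 4, which was lower by 0.01. The mean was 12.92 ± 0.84 (SD, n = 4) without and 12.99 ± 0.65 with irradiation, a log2 difference of 0.07 (SE 0.18, 95% interval -0.38 to 0.52). The differences of pairs 1 and 2 had opposite signs, at -0.43 and 0.61. Leaving out replicate 1 gave a log2 difference of 0.23 and leaving out replicate 2 gave -0.11.

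The other 4 Igf1 probes lay 3040 to 22863 bases upstream of the brightest. Probe A_64_P052740 (chr7:24587916-24587975), spotted 10 times, read 12.80, 12.19, 12.06 and 11.77 without irradiation and 12.95, 12.05, 12.13 and 11.91 with it. This repeated the order of the numbers at its ends, with replicate 1 highest and replicate 4 lowest, and its log2 difference was 0.06 (SE 0.12). Probe A_44_P1044658 (chr7:24607739-24607798) read 11.67, 10.61, 10.54 and 10.26 without and 11.60, 10.47, 10.45 and 10.15 with irradiation. It was lower after irradiation in 4 of 4 pairs, by 0.07 to 0.13, with a log2 difference of -0.10 (SE 0.10, exact two-sided sign-flip p = 0.125, the smallest that 4 pairs allow). Probe A_44_P1087068 (chr7:24605669-24605728) read 10.69, 8.92, 8.70 and 8.51 without and 9.92, 9.40, 8.83 and 7.96 with irradiation. It had the most negative log2 difference of the family, -0.18 (SE 0.23), higher in 2 pairs and lower in the other two. The probe with the CT repeat (A_44_P1164271, chr7:24605477-24605536) read 11.55, 11.42, 11.42 and 11.36 without and 11.54, 11.17, 11.53 and 11.67 with irradiation. It was alone among the Igf1 probes in not placing replicate 1 highest and replicate 4 lowest in both groups, and its log2 difference was 0.04 (SE 0.13).

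Igf2 encodes IGF-II, the ligand abundant in fetal and young bone. Its brightest probe (A_44_P1037953, chr1:202906641-202906700, minus strand) read 15.88, 16.17, 16.78 and 15.97 in non-irradiated and 15.98, 15.98, 16.83 and 16.03 in irradiated replicates 1 to 4. Replicate 3 was highest in both groups. The group means were 16.20 ± 0.40 and 16.20 ± 0.42 (SD, n = 4 each), and the log2 difference was 0.0019 (SE 0.11, 95% interval -0.28 to 0.28). Probe A_44_P1164551, 2804 bases upstream, also peaked in replicate 3, at 9.94 without and 10.14 with irradiation, and had a log2 difference of -0.03 (SE 0.16). Probe A_44_P1091461, 16561 bases upstream, did not follow these. It read 7.50, 7.47, 7.06 and 6.97 without and 7.52, 7.52, 7.44 and 7.13 with irradiation. The irradiated array was higher in 4 of 4 pairs, and the log2 difference of 0.15 (SE 0.12, 95% interval -0.14 to 0.45, exact two-sided sign-flip p = 0.125) was the most positive of the family. The accession of this probe was not matched in RefSeq, so its name rests on the array design alone.

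Igf1r encodes the signaling receptor for both ligands. Its brightest probe (A_44_P1101096, chr1:122996687-122996746, plus strand) read 14.08, 13.46, 13.45 and 13.16 without and 13.82, 13.71, 13.43 and 13.43 with irradiation. Replicate 1 was highest in both groups, and the log2 difference was 0.06 (SE 0.14, 95% interval -0.28 to 0.39). The other probe (A_44_P474037), 7537 bases upstream, read 7.16, 7.27, 7.26 and 7.63 without and 7.16, 6.96, 7.57 and 7.88 with irradiation. It placed replicate 4, which had the lowest mean at the brighter probe, highest in both groups, and its log2 difference was also 0.06 (SE 0.14). Igf2r, the uptake receptor, was read by 1 probe spotted 10 times (A_44_P1003212, chr1:42340766-42340825, plus strand), at 15.80, 15.14, 15.14 and 15.06 without and 15.61, 15.33, 14.98 and 15.20 with irradiation. Replicate 1 was again highest in both groups. The log2 difference was -0.0044 (SE 0.12, 95% interval -0.31 to 0.30).

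Among the binding proteins, Igfbp2 is a binding protein of fetal tissue and of bone cells, and Igfbp4 mainly inhibits IGF action until it is cleaved. Igfbp2 (A_64_P039026, chr9:71994131-71994190, plus strand) read 14.83, 14.98, 15.04 and 14.69 without and 14.53, 15.14, 15.05 and 14.76 with irradiation. Its replicate means had the narrowest range of the 10 genes (0.38), and its log2 difference was -0.01 (SE 0.13, 95% interval -0.32 to 0.29). Igfbp4 (A_43_P16767, chr10:87834213-87834272, plus strand) read 14.90, 14.02, 14.16 and 14.07 without and 14.99, 13.53, 14.00 and 13.97 with irradiation. It was lower after irradiation in 3 of 4 pairs and higher in pair 1, and replicate 1 stood above the other numbers in both groups. With a log2 difference of -0.16 (SE 0.14, 95% interval -0.50 to 0.17), it had the lowest irradiated against non-irradiated value among the brightest probes of the 10 genes. That difference was -0.05 without replicate 2 and -0.25 without replicate 1.

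Igfbp3 encodes the main carrier of IGFs in blood. Its probe (A_64_P046754, chr14:87959244-87959303, minus strand) read 12.66, 10.73, 10.46 and 9.73 in non-irradiated replicates 1 to 4 and 12.21, 11.20, 10.50 and 9.83 in irradiated ones. The signal fell from replicate number 1 to 4 in both groups, although the numbers have no order of their own. The group means were 10.89 ± 1.25 and 10.94 ± 1.02 (SD, n = 4 each), with a log2 difference of 0.04 (SE 0.17, 95% interval -0.37 to 0.46). Without replicate 1 it was 0.20 and without replicate 2 it was -0.10.

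Igfbp5, a binding protein that attaches to bone matrix, had the dimmest probes of the family. Its brighter probe (A_64_P047478, chr9:72003659-72003718, minus strand) read 7.35, 6.06, 5.98 and 4.70 without and 7.24, 6.23, 5.93 and 4.89 with irradiation. The other probe (A_44_P264240, also without a match in RefSeq), 3347 bases towards the 3′ end, read 6.30, 5.62, 5.39 and 4.44 without and 6.08, 5.62, 5.88 and 4.69 with irradiation. Both probes placed replicate 1 highest and replicate 4 lowest in each group. Their log2 differences were 0.05 (SE 0.12, 95% interval -0.24 to 0.34) and 0.13 (SE 0.15).

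Igfbp6, which binds IGF-II in preference to IGF-I, read 9.68, 10.00, 10.14 and 9.83 without and 10.07, 9.36, 10.14 and 9.99 with irradiation (A_44_P378799, chr7:140888422-140888481, plus strand). Its arrays were close together except irradiated replicate 2, the lowest, and the log2 difference was -0.02 (SE 0.19, 95% interval -0.48 to 0.43). Igfbp7, a secreted relative that binds IGFs weakly, read 10.74, 9.78, 9.83 and 9.32 without and 10.35, 10.15, 9.76 and 9.43 with irradiation (A_64_P048187, chr14:33069995-33070054, plus strand). Replicate 1 was highest and replicate 4 lowest in both groups. The log2 difference was 0.01 (SE 0.15, 95% interval -0.37 to 0.38).

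**Figure D2:**
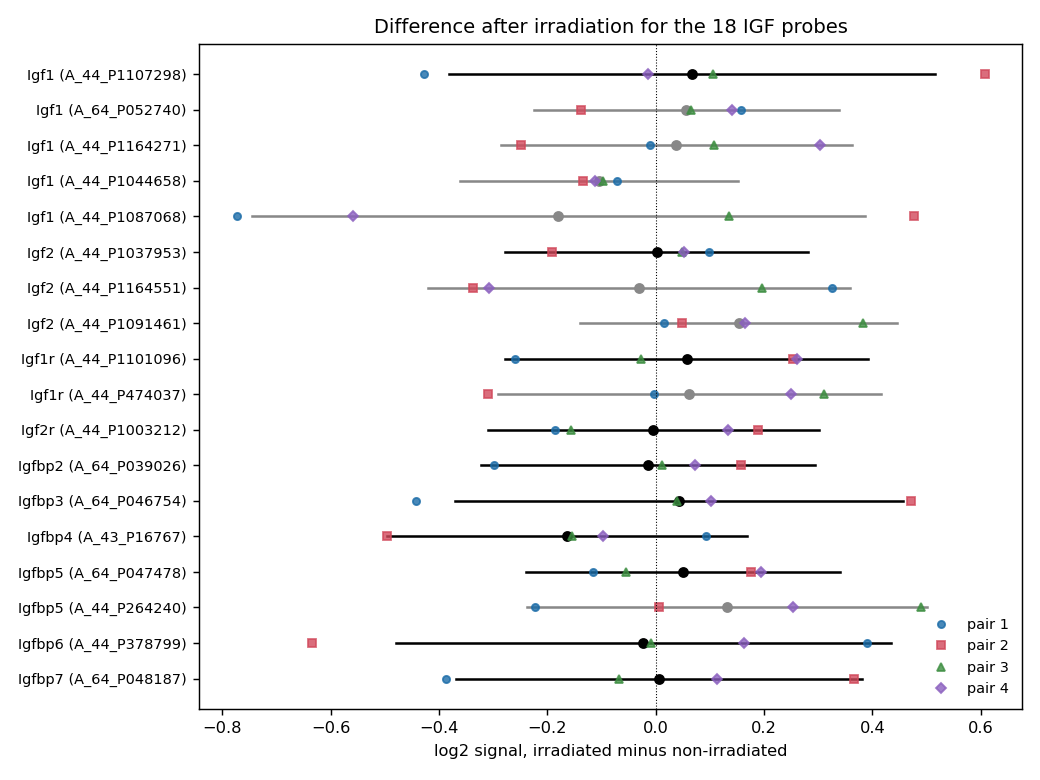
Log2 signal of irradiated minus non-irradiated cells for the 18 IGF probes. Large points are the limma estimate with its 95% interval (black for the brightest probe of a gene, gray for the others), and small points are the 4 pairs of arrays with the same replicate number. All 18 intervals include 0, and the small points of pairs 1 and 2 lie on opposite sides of 0 for the brightest probe of all 10 genes.

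The pair differences of the members were not alike. For the brightest probes, pairs 1 and 2 differed in opposite directions in 10 of 10 genes, beside 74.2% of the 26250 probes with values on all arrays, and in 14 of the 18 member probes (77.8%). Pairs 1 and 4 were opposite in 7 of 10 genes and 46.2% of all probes, and pairs 2 and 4 in 3 of 10 genes and 51.3%. The remaining combinations were opposite in 5 or 6 of 10 genes and 48.2% to 49.5% of all probes. The median size of the pair difference over the 10 genes was 0.28 in pair 1 and 0.31 in pair 2, and 0.05 and 0.11 in pairs 3 and 4. Over all probes these medians were 0.25, 0.34, 0.14 and 0.14. The opposite directions in pairs 1 and 2 were thus common across the array. Of the 18 probes, 6 were higher in at least 3 of 4 pairs and 2 were lower in at least 3. The same counts were not made over all probes, so no direction is read from them.

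For most member probes, the means of the replicate numbers spread more than the differences between the irradiated and non-irradiated arrays of a number did. An F test of limma across the replicate numbers was added after the values had been seen. In this test, 10 of the 18 member probes had an adjusted p below 0.1 (Benjamini-Hochberg over all probes), beside 2384 of 26250 probes (9.08%). These were 4 of the 5 Igf1 probes, 2 of the 3 Igf2 probes, the Igfbp3 and Igfbp4 probes and both Igfbp5 probes. Counted by the brightest probe of each gene, 5 of 10 passed. The count changed when a number was left out, to 0 without replicate 1 (0.556% of all probes) and 0 without replicate 4 (1.26%). It was 4 without replicate 3 (1.76%), 14 without replicate 2 (36.5%) and 3 with no filter on dim probes (1.36%). The share of all probes fell or rose with the count, and the fits without a number had fewer arrays. Whether the count rested on single numbers was not tested. The SD of the 4 pair means exceeded the SD of the 4 pair differences in 16 of the 18 member probes and in 36.3% of all probes. The median SD of the pair means was 0.47 over the members and 0.25 over all probes.

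**Figure D3:**
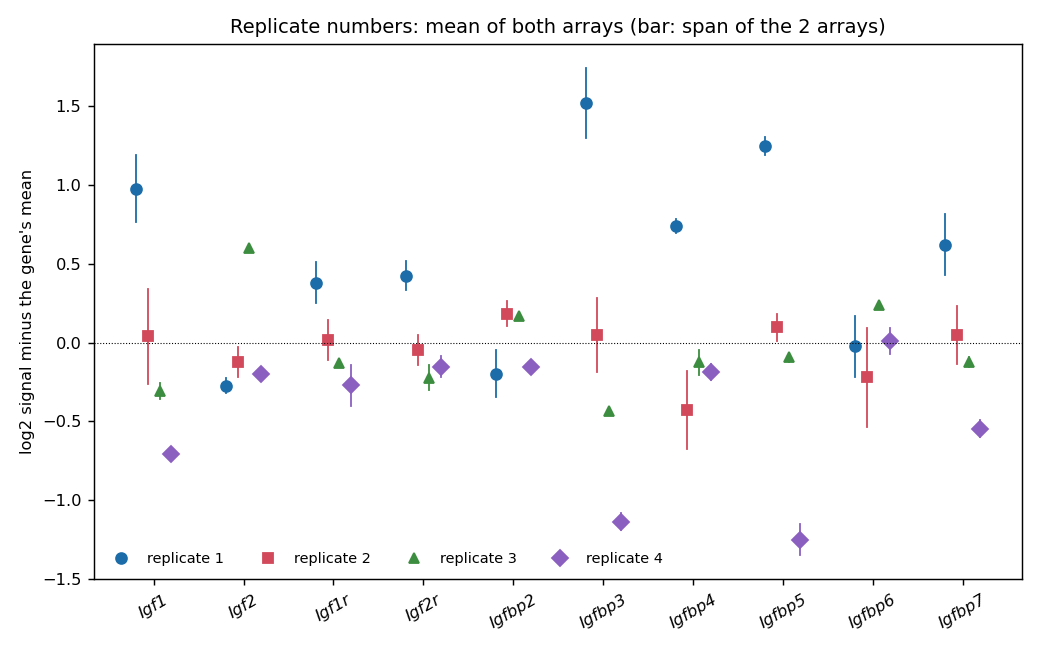
Mean log2 signal of both arrays of each replicate number, minus the mean of the gene over all 8 arrays, for the brightest probe of the 10 IGF genes, with bars joining the values of the non-irradiated and the irradiated array. Igfbp3 and Igfbp5 spread the most, with replicate 1 highest and replicate 4 lowest, and Igf2 is highest in replicate 3.

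Igfbp3 spanned 2.66 on the log2 scale between the mean of replicate 1, 12.44, and that of replicate 4, 9.78, a 6.31-fold range (F test, adjusted p = 0.019 in limma). Igfbp5 spanned 2.50 (5.66-fold, adjusted p = 0.010 in limma) at the brighter probe and 1.63 at the other. Igf1 spanned 1.69 (3.22-fold, adjusted p = 0.067 in limma), and its 5 probes ranged from 0.25 at the CT-repeat probe (adjusted p = 0.69 in limma) to 2.07. Igfbp4 spanned 1.17 (2.25-fold, adjusted p = 0.071 in limma), most of it between replicate 1 and the rest. Igf2 spanned 0.87 (1.83-fold, adjusted p = 0.081 in limma), with replicate 3 in front. Igfbp7, with the same span of 1.17, lay just outside the limit (adjusted p = 0.101 in limma). Igf1r, Igf2r, Igfbp2 and Igfbp6 spanned 0.38 to 0.65 and did not pass. Over the 10 genes, replicate 1 had the highest mean in 7 and replicate 4 the lowest in 5, whereas over all probes replicate 1 was highest in 32.8% and replicate 4 lowest in 31.9%. In these bulk samples, fewer cells of a type and less RNA per cell cannot be told apart.

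Cell type markers differed between the same numbers. The summed log2 signal of the chondrocyte markers (Acan, Col2a1, Sox9, Comp and Matn1) was 12.59 in replicate 1 and 15.46, 16.34 and 15.44 in replicates 2 to 4. Of the 5, 4 were above background on all arrays. The sum was thus lowest in replicate 1, with Col2a1 at 10.04 beside 14.98 to 15.85 in the other numbers. Acan, Comp and Matn1 were lowest there as well, but the brightest Sox9 probe was lowest in replicate 4 (10.722, beside 10.735 in replicate 1). The endothelial sum was 10.20, 9.99, 8.98 and 8.74 in replicates 1 to 4, the skeletal muscle sum 8.87, 8.49, 8.09 and 7.91, and the adipocyte sum 6.46, 6.07, 5.77 and 5.01. These 3 sums were highest in replicate 1 and lowest in replicate 4, but a sum follows its brightest genes and not every marker kept to it. Cdh5 was highest in replicate 2 (8.14), Tek lowest in replicate 3 (5.76) and Acta1 highest in replicate 3 (6.90), and of the adipocyte genes 0 could be tested. The macrophage sum was 10.17 to 10.39, carried by Cd14, whereas Lyz2 had means of 7.83, 6.06, 5.85 and 4.85 in replicates 1 to 4. Lyz2 thus stood in the order of Igfbp3 (adjusted p = 0.020 in limma). Aif1, at 6.13, 5.75, 5.37 and 5.11, had that order as well but did not pass the F test (adjusted p = 0.13 in limma). Cd14 had the opposite order, at 9.65, 9.67, 10.04 and 10.15, and Cd68 had neither, at 7.35, 7.41, 6.73 and 6.79. The osteoblast sum was 19.23 to 19.51. Replicate 4 was the lowest number for Runx2 (10.40), Alpl (8.51), Bglap (6.85), Ibsp (4.66) and Dlx5 (10.29). It was the highest number for Col1a1 (18.24), Col1a2 (17.62), Spp1 (14.65) and Sparc (17.67), and Sp7 was lowest in replicate 2 (4.80). At the brightest probe, 3 of 10 osteoblast, 3 of 5 chondrocyte, 2 of 4 endothelial, 2 of 4 muscle and 1 of 4 macrophage genes passed the F test in limma, beside the 9.08% of all probes. The part of these cell types in the differences among numbers was not tested.

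Igfbp3, the member with the widest SD of pair means (1.12), was compared with all other probes over the 8 arrays. The 3 probes of other genes with the highest Pearson r were those of Crym, Gorab and Acss1, each at 0.998. Crym had pair means of 11.78, 11.01, 10.76 and 10.36, the same order as Igfbp3 with a narrower span. Of 26249 probes, 1475 had an r above 0.9. The 8 points come from 4 numbers, and no test was made.

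By the mean signal of the brightest probe, the binding proteins ranked Igfbp2 (14.88), Igfbp4 (14.21), Igfbp3 (10.91), Igfbp7 (9.92), Igfbp6 (9.90) and Igfbp5 (6.05). These are brightnesses of different probes and not amounts of transcript per length, since probes differ in how strongly they bind. Igfbp2 exceeded Igfbp4 on 6 of 8 arrays, by 0.67 in the mean with an SD of 0.67 over the 4 numbers, so these neighbors did not differ beyond their spread. Igfbp7 and Igfbp6 differed by 0.02 with an SD of 0.56, and Igfbp7 was brighter on 3 of 8 arrays. Igfbp4 was brighter than Igfbp3, Igfbp3 than Igfbp7, and Igfbp6 than Igfbp5 on 8 of 8 arrays, with mean gaps of 3.29, 0.99 and 3.86. Igfbp3 was nevertheless not always in its place, for Igfbp6 was brighter than Igfbp3 on both arrays of replicate 4, at 9.83 against 9.73 without and 9.99 against 9.83 with irradiation. Igfbp5 was last on every array. Without replicate 1 or without replicate 2, Igfbp6 and Igfbp7 changed places.

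Probes of the same gene differed by as much as the binding proteins did. The brightest and the dimmest Igf2 probe were 8.88 apart on the log2 scale (470-fold), those of Igf1r 6.21 (73.8-fold), those of Igf1 3.84 (14.3-fold) and those of Igfbp5 0.54 (1.46-fold). For Igf1, Igf2 and Igf1r the brightest probe was the one nearest the 3′ end of the gene, and for Igfbp5 it was not.

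**Figure D4:**
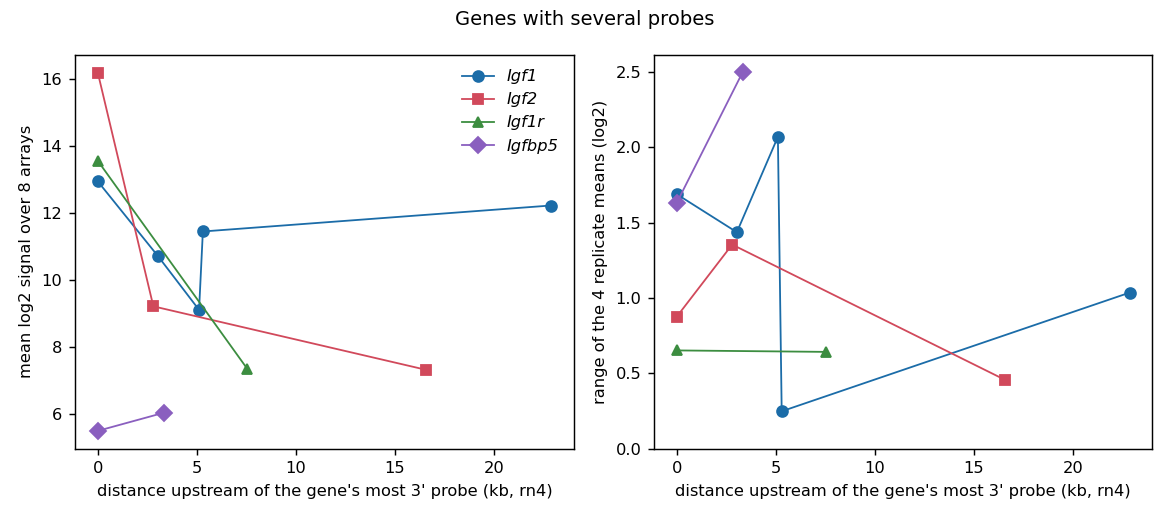
Mean log2 signal over the 8 arrays (left) and range of the 4 replicate means (right, log2) against the distance in kb (rn4) upstream of the most 3′ probe, for the 4 IGF genes with several probes. The most 3′ probe is the brightest for Igf1, Igf2 and Igf1r, and the probe of Igf1 with the smallest range (0.25) is the one with the CT repeat.

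Some members lie beside one another in the genome. Igfbp2 and Igfbp5 are neighbors on chromosome 9, their nearest probes 6122 bases apart on rn4 and on opposite strands, with 0 protein-coding genes between them in the RefSeq table of another build. Their signals did not vary alike, for the replicate means spanned 0.38 at Igfbp2 and 2.50 at Igfbp5. Igfbp3 lies next to Igfbp1 on chromosome 14, with 4449 bases between the probes. Igfbp1, a binding protein mainly of liver, was steady, its replicate means lying between 7.33 and 7.59 while those of Igfbp3 spanned 2.66.

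Other genes of the pathway gave the same picture for irradiation. Of 35 listed genes, 34 had a probe under that name, Pappa having none, and 31 were tested. At the brightest probe of each gene, irradiated cells were higher in 12 (38.7%, beside 48.8% of all probes) and lower in 19 of them. None was past the fold and adjusted p limits in limma, and 1 of the 31 reached an unadjusted p under 0.05, near the 2.54% of all probes. Among carriers of the signal inside the cell, from the insulin receptor substrates to Akt and Mtor, 8 of 21 were higher and 13 lower, with Irs1 at 0.05 (SE 0.14) and Irs2 at -0.05 (SE 0.15). Among extracellular regulators, 3 of 6 were higher and 3 lower. Igfals, which encodes the subunit that stabilizes IGF complexes in blood, was that gene, and it was dim. It read 4.45, 4.08, 4.27 and 4.05 without and 3.97, 3.22, 4.35 and 3.50 with irradiation, and was well above background on 4 of 4 non-irradiated but 2 of 4 irradiated arrays. It passed the filter only through the group in which it was higher, so its values are a description and support no difference. The groups overlapped, and 3 of 4 pairs were lower after irradiation. Its log2 difference was -0.45 (SE 0.17, 95% interval -0.88 to -0.03, adjusted p = 0.9999 in limma). With all 8 arrays required to be above background it was not tested, and 0 pathway genes reached an unadjusted p under 0.05.

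Stc1, for the secreted glycoprotein stanniocalcin 1, had the most positive log2 difference among the brightest probes of the list, 0.25 (SE 0.20), with pair 2 at 0.95 and the others at -0.11 to 0.18. Its other probe went the other way, at -0.23 (SE 0.27) with pair 2 at -0.96, so the probes of Stc1 disagreed. Among the dimmer probes of the listed genes, 1 of Igf2bp1 (A_44_P550215) differed by 0.47 (SE 0.22), while its brightest probe differed by -0.01 (SE 0.11). The dimmer Igf2bp1 probe was well above background on 4 of 4 irradiated but 2 of 4 non-irradiated arrays. It passed the filter only through the group in which it was higher, so its values are a description and support no difference. Igfbp1 differed by 0.05 (SE 0.14). Stc2 was above background on 4 of 8 arrays and was not tested, nor were Insrr and Irs4. Of the regulators of Igf2 RNA, 1 of 4 was higher and 3 were lower.

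Among replicate numbers, 3 of the 31 pathway genes passed the F test in limma, a share near the 9.08% of all probes. They are named after their values were seen, and at that share no link to the members is read from them. Pappa2, for a protease that cuts Igfbp3 and Igfbp5, had replicate means of 14.83, 13.48, 12.74 and 13.29 (adjusted p = 0.032 in limma). It was highest in replicate 1 like both of these genes but lowest in replicate 3, whereas they were lowest in replicate 4. H19, the noncoding RNA gene of the imprinted locus that holds Igf2, had means of 16.74, 16.68, 17.46 and 16.08 (adjusted p = 0.036 in limma). It was highest in replicate 3 like the brightest Igf2 probe but lowest in replicate 4, whereas that probe was lowest in replicate 1. Pik3ca, the catalytic subunit of the kinase that acts between the receptor and Akt, had means of 12.10, 11.80, 11.14 and 10.77 (adjusted p = 0.079 in limma), in the same order as Igfbp3. Its dimmer probe A_64_P066438 had that order as well (adjusted p = 0.088 in limma). Probe A_44_P1080255 did not, at 10.32, 10.03, 10.07 and 9.98, and did not pass (adjusted p = 0.41 in limma).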

How the data were processed

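Total RNA (200 ng) of each sample was labeled with Cy3 and hybridized to a one-color Agilent rat array. The authors deposited the intensity of every spot as extracted with Agilent Feature Extraction 11.0.1.1, corrected for background but not normalized between arrays. They also deposited a table of quantile-normalized log2 values of 24029 rows, 1 per transcript name, which was used as an alternative. Depth does not apply to arrays, and their number, 4 per group, limits the precision.

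After log2 transformation, processed intensities of the 58717 rat probe spots were quantile normalized, spots marked as outlying were left out, and spots of a probe were averaged. Probes of a gene were kept apart, the brightest being the main one. Testing required that more than 50% of the spots of a probe exceeded background clearly on each of the 4 arrays of a group, either one (26404 probes, of which 26399 could be fitted and 26250 had a value on all 8 arrays). The comparison of the groups used limma 3.58.1 (functions lmFit and eBayes, R 4.3.3), two-sided, with the replicate number as a fixed block and Benjamini-Hochberg adjustment over all probes. Replicate numbers were compared with an F test in the same fit, which was added after the values had been seen. The scripts were tested on simulated data.

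The names of the deposited files give both arrays of a number the same rat number. Deviations from the group means correlated within numbers 1 to 4 at 0.608, 0.0542, 0.571 and 0.749 across probes. Neither the labels nor the methods state the pairing. Slide and scan were single and could not be fitted.

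Every member probe is named. Of the pathway list, genes with an unadjusted p below 0.05, the extreme in each direction and Igfbp1, Pappa, Stc1, Stc2, Irs1, Irs2 and Igfals are named by rule. Pappa2, H19, Pik3ca, Insrr, Irs4 and Igf2bp1 are outside this rule and were named after their values were seen. The members and lists were chosen with earlier results of these data known. The accessions of 16 of the 18 probes matched the same symbol in RefSeq, and those of A_44_P1091461 (Igf2) and A_44_P264240 (Igfbp5) did not. Names are those of the array design. The alternatives were other scaling (75th percentile), background correction (normexp with offset 50, or none), filters, the deposited values, outlying spots kept, no block or a random block (consensus correlation 0.442), trend and robust estimation, averaged probes and each number left out in turn.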

Additional observations from a re-analysis of the deposited data

Results flagged for a closer look

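In 46 groups of 4 arrays (the 18 member probes and the brightest probes of Irs1, Irs2, Igfbp1, Igfals and Stc1), 5 (10.9%) held an array whose gap to its nearest neighbor, divided by the range of the group, exceeded Dixon's 95% critical value, where chance gives about 5%. Igf2 was singled out in irradiated replicate 3 at both of its brighter probes. Probe A_44_P1037953 read 16.83 there, beside 15.98 to 16.03 in the other irradiated arrays, and its non-irradiated partner read 16.78 beside 15.88 to 16.17. Probe A_44_P1164551 read 10.14 beside 8.85 to 8.98, with a partner at 9.94 beside 8.52 to 9.32. For both probes the array of the same number in the other group was thus the highest as well. Igf2r was high in non-irradiated replicate 1, at 15.80 beside 15.06 to 15.14, and its partner was the highest irradiated array, at 15.61. Igfbp4 was high in non-irradiated replicate 1, at 14.90 beside 14.02 to 14.16, with a partner at 14.99 beside 13.53 to 14.00. Igfbp1 was low in non-irradiated replicate 3, at 7.23 beside 7.45 to 7.49, whereas its partner, at 7.54, lay inside the irradiated range of 7.18 to 7.71.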

How the results depend on the processing

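Under 15 alternatives, the 10 member genes gave 149 log2 differences, of which 0 had an unadjusted p below 0.05 and 18 changed sign. The largest was 0.25 in size and the smallest unadjusted p was 0.164. No probe of the array passed both limits under any of the alternatives. Signs changed for Igf1 with its probes averaged (-0.024), Igf2r (0.0054) and Igfbp7 (-0.012) in the deposited values, Igfbp5 under normexp (-0.016) and Igfbp7 under scaling to the 75th percentile (-0.0090). With each number left out in turn, the log2 difference ranged from -0.11 to 0.23 for Igf1, -0.031 to 0.067 for Igf2, -0.011 to 0.16 for Igf1r, -0.069 to 0.056 for Igf2r, -0.071 to 0.081 for Igfbp2, -0.10 to 0.20 for Igfbp3, -0.16 to 0.18 for Igfbp6 and -0.11 to 0.14 for Igfbp7. Igfbp4 (-0.25 to -0.05) and Igfbp5 (0.0019 to 0.11) kept their sign. The deposited values held no row for the brightest Igf2 probe. The cause of the changes of sign was not tested.

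Member probes with the higher mean after irradiation numbered 5 of 10 with probes averaged, a smaller number of features, and 7 to 13 of 18 with a number left out, 7 without replicate 4. Member probes that differed among replicate numbers were 3 with no filter, 5 of 10 with probes averaged and 0 to 14 with a number left out. Up to 2 binding proteins changed place when a number was left out, and 0 under other settings. Of all probes, 252 had an unadjusted p below 0.05 under normexp, 254 with the mean signal, 1658 with no filter, 292 in the deposited values, 384 with trend and robust estimation and 392 to 1410 with a number left out (392 without replicate 3, 402 without 4, 1077 without 1, 1410 without 2). Without the replicate block 246 did, and 0 member probes. The 1 pathway gene, Igfals, became 0 under normexp, the mean signal, scaling to the 75th percentile, no filter, all 8 arrays above background, the deposited values, no replicate block and trend and robust estimation, and 0 to 1 with a number left out.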
